A study of Mus musculus with 25 samples.

Results

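Genes of the type I interferon response were followed across thymic invariant natural killer T (iNKT) cells of wild type mice and of mice that lack the Hippo pathway kinase Mst1 alone or together with Mst2. The set was a list of 40 gene symbols: the 2 chains of the type I interferon receptor, factors that carry its signal, and genes known to be induced by it. A gene was taken as measured when an array cluster named that symbol and no other, and where several did, the 1 with the highest mean level was taken. By this rule 38 of the 40 were measured, among 22206 clusters in all; Ifi44 and Ifi47 were not analysed here.

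iNKT cells are T cells with a nearly invariant receptor for lipid antigens on CD1d, and in the thymus they pass from NK1.1-negative stages to an NK1.1-positive stage. All mice were labelled C57BL/6, and the labels give no age, allele or promoter. Cells were enriched with CD8 microbeads and sorted as TCRb+, positive for the PBS57-loaded CD1d tetramer and CD24-. The pooled stages 1 and 2 (S1_S2) were NK1.1-, with CD44- cells as stage 1 and CD44+ cells as stage 2, and stage 3 (S3) was CD44+ NK1.1+. There were 6 arrays of wild type (WT) S1_S2, 4 of Mst1KO S1_S2, 2 of dKOMst S1_S2, 7 of WT S3, 5 of Mst1KO S3 and 1 of dKOMst S3, which the series describes as the Mst1 and Mst2 double knockout. Replicate numbers used here follow the order of the samples and pair none across groups. Nothing in the labels ties the arrays of a group to separate mice. The p-values only set differences between groups against the scatter of these arrays, and that scatter may be technical. In sorted bulk RNA, fewer cells of a kind and less RNA per cell cannot be told apart; the S1_S2 samples also mix 2 stages whose proportions are not given.

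Type I interferons are secreted proteins that signal through a receptor made of IFNAR1 and IFNAR2. The receptor activates the kinases JAK1 and TYK2, and the factor ISGF3, which holds STAT2 and IRF9, then binds interferon-stimulated response elements (ISRE) in the promoters of induced genes. A different element, GAS, serves the response to interferon gamma as well. In the thymus, some cells make type I interferon without infection, and developing thymocytes carry a low level of interferon-induced transcripts.

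To show what these genes carry in front of their start sites, promoter sequences of RefSeq (build GRCm38.p6) were searched on both strands for an ISRE core, which is GAAA, any 2 bases and GAAA again, and for GAS, TTCNNNGAA. Windows of 250 bases before and 50 bases after the start were found for 29 of the 38 measured genes. The ISRE core was present for 13 of the 29 (44.8%), against 3.99% of all genes and 3.44% of all windows in the table. GAS was present for 12 of the 29 (41.4%), against 9.55% of genes and 8.30% of windows. A match is a description of letters and not a shown binding site. The stretches printed here are those of classical induced genes with an ISRE core and of some of the genes with GAS whose level is followed below; capitals mark the matched letters, and each reads 5′ to 3′ in the direction of its gene.
Isg15, ISRE core, chr4:156200865-156200906, minus strand: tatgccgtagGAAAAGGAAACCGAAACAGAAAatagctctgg
Ifit1, ISRE core, chr19:34640775-34640823, plus strand: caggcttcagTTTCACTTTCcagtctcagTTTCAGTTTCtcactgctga
Oas1a, ISRE core, chr5:120907526-120907555, minus strand: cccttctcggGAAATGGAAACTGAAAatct
Oas3, ISRE core, chr5:120777715-120777744, minus strand: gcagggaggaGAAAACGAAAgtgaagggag
Irgm1, ISRE core, chr11:48871425-48871460, minus strand: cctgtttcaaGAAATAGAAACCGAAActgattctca
Irf1, GAS, chr11:53769914-53769942, plus strand: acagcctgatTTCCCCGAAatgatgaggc
Samhd1, GAS, chr2:157135313-157135341, minus strand: acaccaccctTTCGGAGAAacacaagggc
Isg20, GAS, chr7:78913341-78913369, plus strand: ctggggagggTTCTTGGAAtttttccttt
Ifnar2, GAS, chr16:91372559-91372587, plus strand: tgccaaggccTTCCTGGAAgaagagagta
Oas1a, Irgm1 and Isg15 carried runs of overlapping ISRE cores, and Ifit1 carried 2 separate cores. Of 12 genes that passed a test in some comparison below and had a window, 3 held an ISRE core and 6 held GAS. Of the 17 that passed none, 10 held an ISRE core and 6 held GAS.

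The values were log2 levels that had been normalized together. Array medians lay between 7.28 and 7.39, and the medians of the negative control probes between 6.19 and 6.59. Of the iNKT and T cell markers, 8 of 8 measured were above the negative control median on all 25 arrays. The mean level of 7 markers of plasmacytoid dendritic cells, which make much type I interferon, lay between 6.62 and 7.23 on all arrays; 3 of the 7 were above background on all arrays, and Clec12a on none. Sample titles carry numbers in 2 separate ranges: the 16 arrays of the first held all Mst1KO arrays, and the 9 of the second all dKOMst arrays; WT arrays lay in both. The labels do not call these ranges batches, but the main fit over all 25 arrays had a term for them. Fits without this term, such as those of 1 range alone, are named where they are used. Replicates 3 and 4 of both Mst1KO groups lacked the signal of Y-linked genes that the other arrays showed. The targeted gene Stk4, which encodes Mst1, was lower in Mst1KO than in WT at S1_S2 (log2 difference -0.92 ± 0.16 SE, limma adjusted p = 0.00592). At S3 the same difference was -0.35 ± 0.15 (adjusted p = 0.152), and in dKOMst S1_S2 it was -0.74 ± 0.20 (adjusted p = 0.0829). The dKOMst S1_S2 arrays were at 9.63 and 10.27, the latter within the WT range of 10.18 to 10.74, and the dKOMst S3 array was at 10.08, within the WT S3 range of 9.69 to 10.73. The Mst1KO S3 arrays, at 9.43 to 10.13, also overlapped WT S3. The level of this cluster therefore did not set every dKOMst or Mst1KO S3 array apart from WT, and the genotype names below are those of the labels. The sources used here do not say whether its probes lie in the deleted part, and the probe table names no cluster for Stk3, which encodes Mst2.

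Most interferon response genes were above background, as set by the negative control probes, in every sample, at both stages and in every genotype. Of the 38, 36 lay above the negative control median on all 25 arrays, compared with 56.0% of all clusters. The 2 others were Mx1 and Rsad2, which encode the antiviral proteins MX1 and viperin and were above it on some arrays. A level above this median does not by itself show expression. Of markers of other cell types, 2 of 5 for B cells, 3 of 9 for myeloid cells and 0 of 5 for thymic epithelium were above it on all arrays. The mean over the 38 genes ranged from 9.11 to 9.38 in WT S1_S2, from 9.07 to 9.24 in Mst1KO S1_S2 and from 9.10 to 9.16 in dKOMst S1_S2. It ranged from 9.02 to 9.26 in WT S3 and from 9.03 to 9.26 in Mst1KO S3, and was 9.26 on the dKOMst S3 array. The ranges of the 5 groups with more than 1 array all overlapped, and the dKOMst S3 array lay within the WT S3 and Mst1KO S3 ranges.

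**Figure D1:**
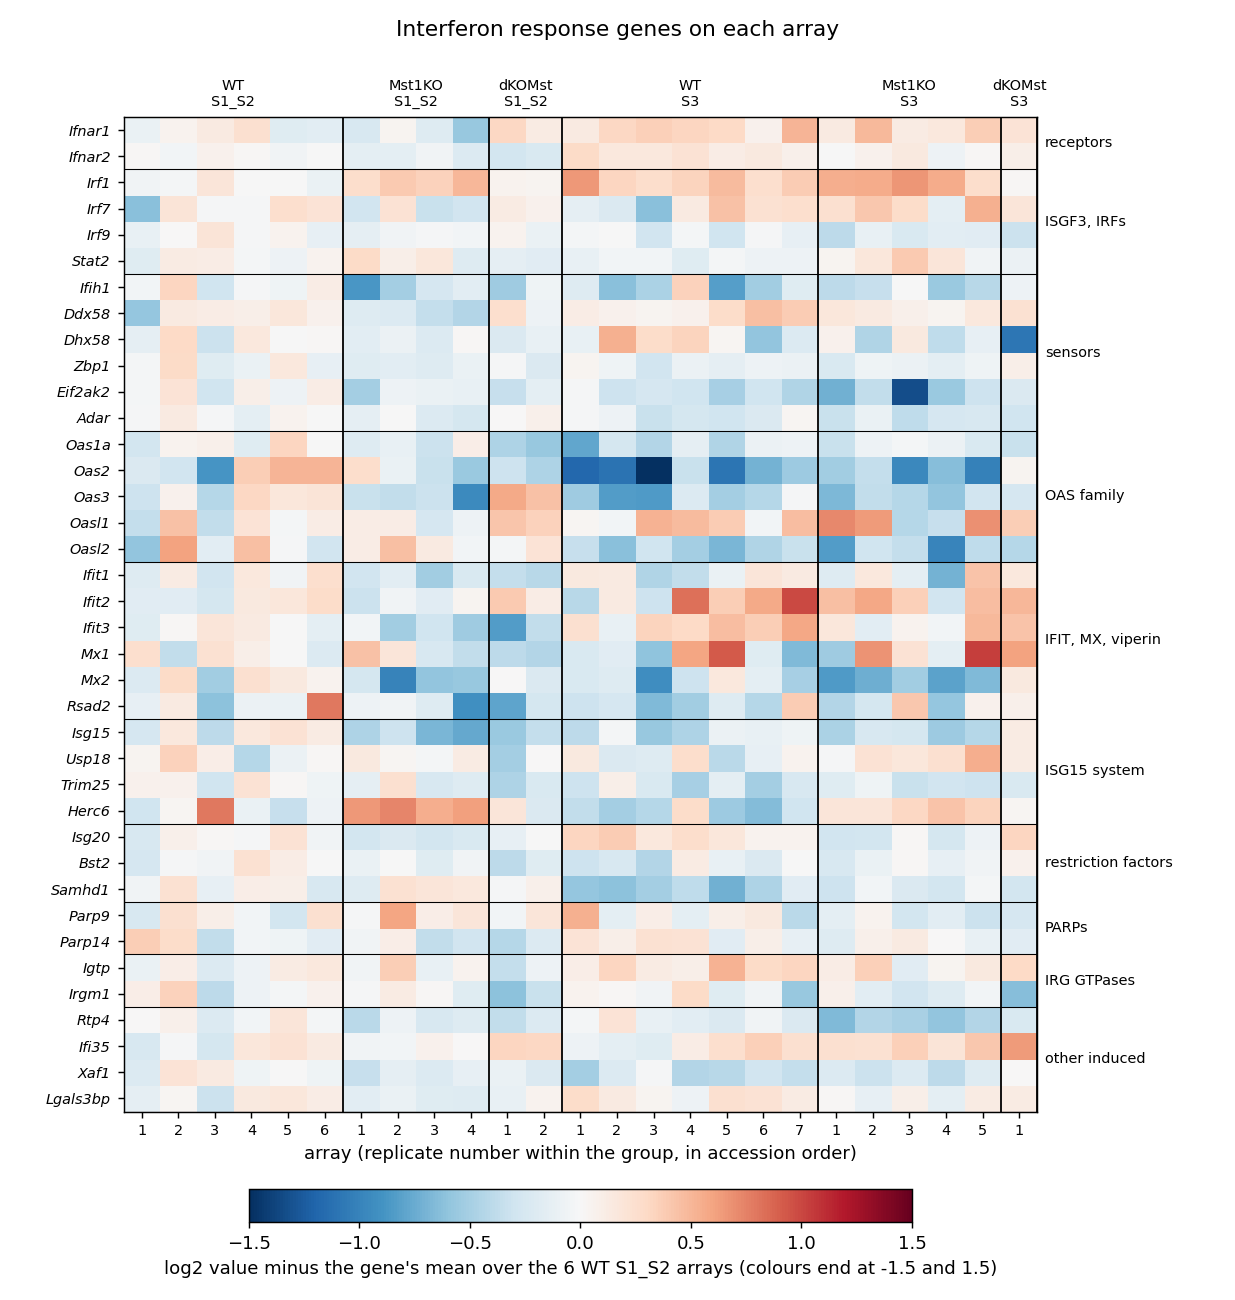
Level of each of the 38 measured genes on each of the 25 arrays, as the log2 value minus the gene's mean over the 6 WT S1_S2 arrays; columns are arrays by group, genes are ordered by role. Oas2 and Samhd1 were lower in WT S3 and passed the test. Irf1 and Herc6 were mostly higher in Mst1KO S1_S2 but did not pass there. No group was red or blue for the set as a whole.

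Maturation in WT cells was the first comparison. From S1_S2 to S3, 7 of the 38 genes differed at an adjusted p under 0.05, where 16.9% of all clusters did, and 5 of the 7 were lower at S3. The lower genes were Samhd1, Oas2, Oas3, Oasl2 and Xaf1, and the higher genes were Irf1 and Ifnar2. The median log2 difference of the 38 was -0.08, against 0.01 over all clusters, and no gene of the set changed by 2-fold. In the higher direction 2 genes passed (8.18% of clusters) and in the lower direction 5 (8.75% of clusters). Unless another fit is named, differences below carry the standard error of a limma fit over all 25 arrays and an adjusted p over all clusters.

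Of the receptor chains, 1 of 2 passed. Ifnar2, the chain that binds interferon with high affinity, ran from 11.42 through a median of 11.48 to 11.54 on the 6 WT S1_S2 arrays. On the 7 WT S3 arrays it ran from 11.55 through 11.63 to 11.76. The groups did not overlap, and the difference was small and passed the test (0.16 ± 0.05, 1.12-fold, adjusted p = 0.0362). That call was lost without WT S1_S2 replicate 1, 2, 5 or 6 or WT S3 replicate 1, 4 or 6, where the adjusted p reached 0.0875. Ifnar1, the other chain, had lowest, median and highest values of 9.52, 9.68 and 9.95 at WT S1_S2 and 9.76, 10.01 and 10.21 at WT S3 (0.28 ± 0.10, adjusted p = 0.0539), so the groups overlapped and the test was narrowly missed.

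Among the transcription factors only Irf1 passed. Irf1 activates interferon and major histocompatibility genes and is itself induced through GAS, as in the sequence above. Its values ran from 9.85 through 9.93 to 10.13 at WT S1_S2 and from 10.20 through 10.28 to 10.60 at WT S3. Every S3 array was above every S1_S2 array, a difference of 0.38 ± 0.08 (1.30-fold, adjusted p = 0.000671). Within the first range of title numbers the difference was 0.36 (adjusted p = 0.0714) and within the second 0.41 (adjusted p = 0.0339). The ISGF3 subunits gave -0.08 ± 0.08 for Stat2 (adjusted p = 0.598) and -0.12 ± 0.07 for Irf9 (adjusted p = 0.319). Irf7, the factor that amplifies interferon production, gave 0.04 ± 0.14 (adjusted p = 0.903).

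The 2'-5' oligoadenylate synthetases, which sense double-stranded RNA and switch on RNase L, held 3 of the 5 lower genes. Oas2 had the largest difference of the 38: its values ran from 7.96 through 8.92 to 9.35 at WT S1_S2 and from 6.83 through 7.75 to 8.51 at WT S3. The groups overlapped, and the difference was -0.95 ± 0.20 (1.93-fold lower at S3, adjusted p = 0.00127). The fall was -1.24 among arrays of the second range (adjusted p = 0.000536) and -0.69 among those of the first (adjusted p = 0.195). In WT S1_S2 the 3 arrays of the second range lay at 9.22, 9.35 and 9.35, above the 3 of the first at 7.96, 8.55 and 8.62. Oas3 ran from 8.69 through 9.23 to 9.43 at S1_S2 and from 8.27 through 8.61 to 9.10 at S3 (-0.46 ± 0.12, adjusted p = 0.0104). Oasl2, a ubiquitin-like relative, ran from 7.22 through 7.73 to 8.42 at S1_S2 and from 7.14 through 7.37 to 7.52 at S3 (-0.46 ± 0.16, adjusted p = 0.0474). Its call was lost without any single one of 10 of the 13 arrays, all except WT S1_S2 replicates 1 and 6 and WT S3 replicate 3, with an adjusted p of up to 0.168. Oas1a gave -0.31 ± 0.11 (adjusted p = 0.0512) and Oasl1 gave 0.26 ± 0.18 (adjusted p = 0.407), so the family did not move as one. Its members are related in sequence, and cross-reaction of their probes was not tested.

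The other lower genes were Samhd1 and Xaf1. Samhd1 encodes an enzyme that degrades deoxynucleotides and restricts viruses; it ran from 10.05 through 10.31 to 10.53 at WT S1_S2 and from 9.58 through 9.79 to 10.12 at WT S3. One S3 array, replicate 7, reached into the S1_S2 range, and the difference was -0.49 ± 0.09 (1.40-fold, adjusted p = 0.000513). Xaf1, a partner of the apoptosis inhibitor XIAP, ran from 8.97 through 9.14 to 9.38 at S1_S2 and from 8.66 through 8.82 to 9.16 at S3 (-0.32 ± 0.08, adjusted p = 0.00483). Of the sensors, the IFIT, MX and viperin group, the ISG15 system, the PARPs and the immunity-related GTPases, none passed in this comparison. The nearest were the GTPase gene Igtp (0.26 ± 0.09, adjusted p = 0.0507), Ifit3 (0.32 ± 0.12, adjusted p = 0.0615) and Herc6 (-0.38 ± 0.14, adjusted p = 0.0624). With arrays of the first range alone 1 of the 38 passed (Samhd1), with the second alone 4, and with brighter clusters alone 12. The share of all clusters that passed in those fits is not given here, so these counts are not a result about the set. Mean levels of 4 NK cell markers, one of which is the NK1.1 gene used in the sort, were 6.86 to 7.34 at WT S1_S2 and 8.32 to 8.84 at WT S3, and those of 9 myeloid markers were 6.32 to 6.66 and 6.82 to 7.06. Of the NK cell markers, Klrb1c and Itga2 were above background on all WT S1_S2 arrays, and Ncr1 and Eomes on none. The part of these markers in the stage differences was not tested.

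**Figure D2:**
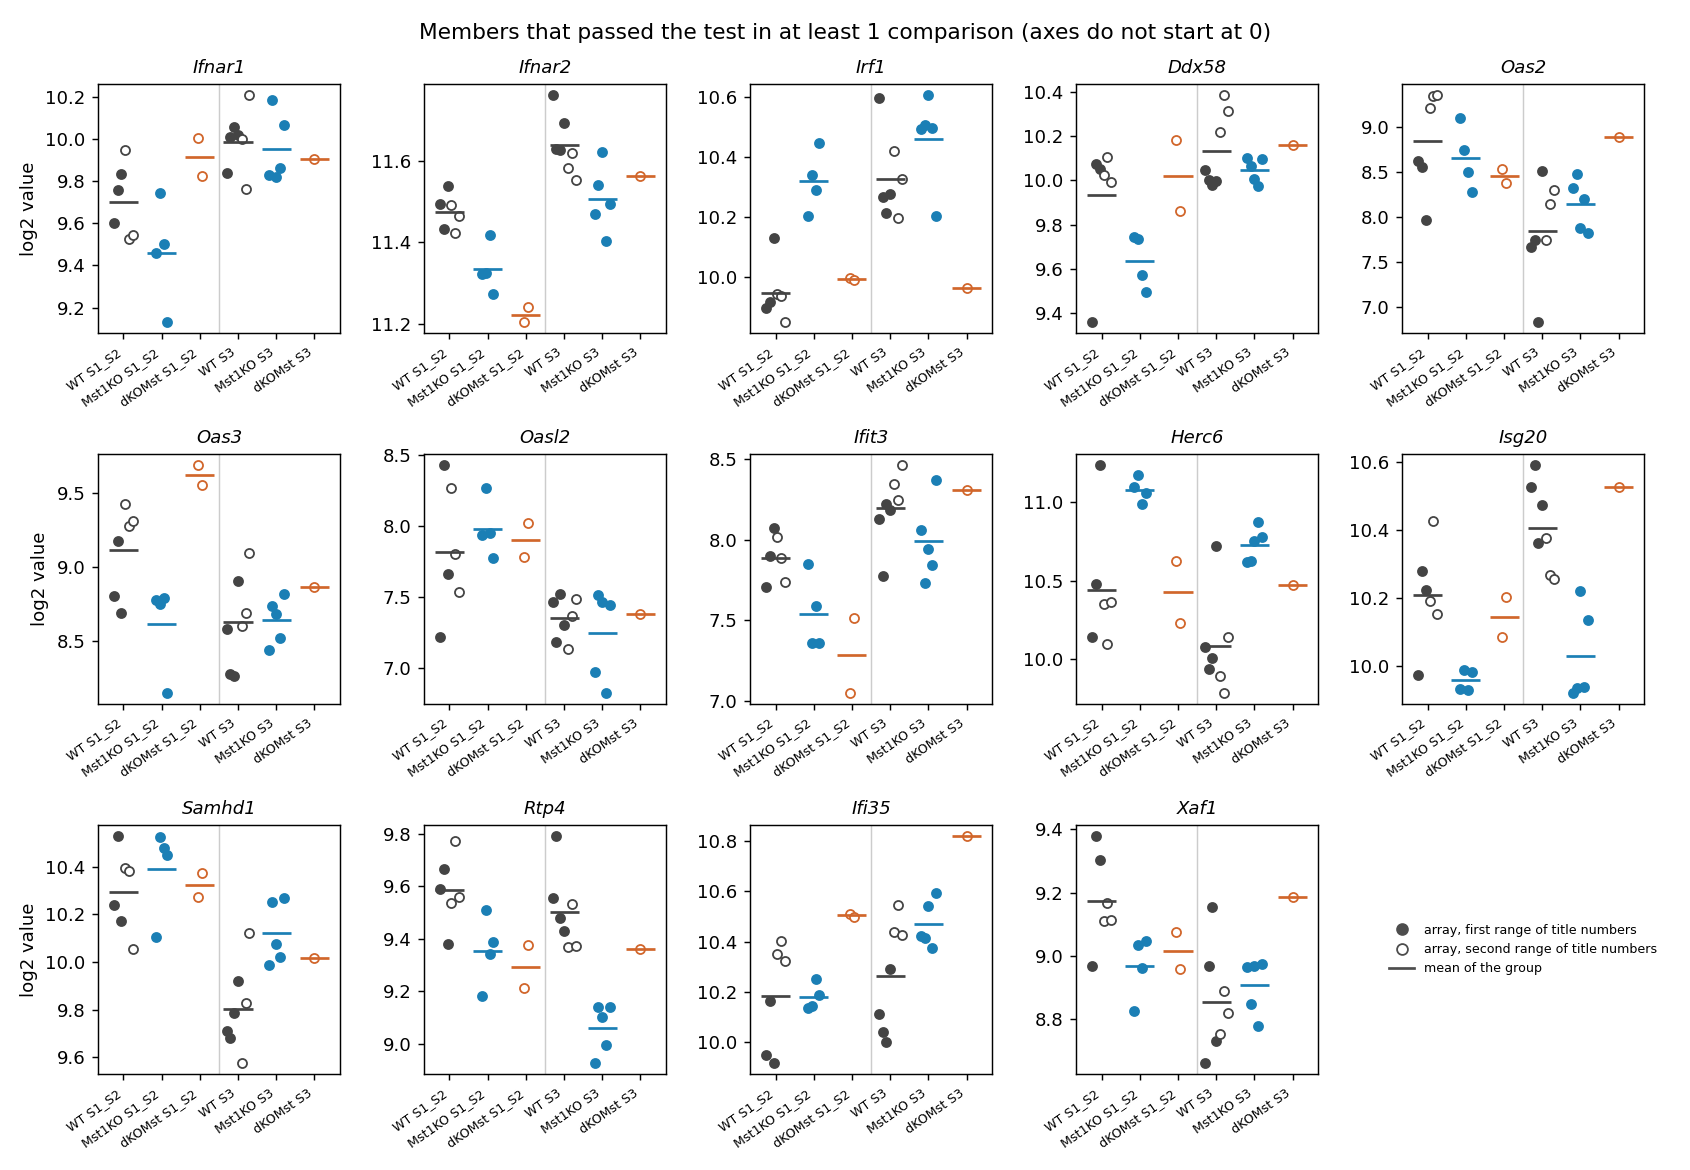
Log2 values of the 14 genes that passed in at least 1 comparison, 1 point per array, with the group mean as a line; filled points are arrays of the first range of title numbers and open points those of the second. Irf1 at WT S3 (10.20 to 10.60) lies above all WT S1_S2 arrays (9.85 to 10.13), and Rtp4 in Mst1KO S3 (8.93 to 9.14) below all WT S3 arrays (9.37 to 9.79).

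The same maturation step in Mst1KO cells gave a partly different list. Between Mst1KO S1_S2 and Mst1KO S3, 6 of the 38 genes passed, where 10.2% of clusters did. Ifnar1, Ifi35, Ddx58 and Ifit3 were higher at S3 (5.58% of clusters) and Oasl2 and Rtp4 were lower (4.62% of clusters). The median difference was 0.05, against -0.04 over all clusters. Ifnar1 was at 9.46, 9.75, 9.503 and 9.13 on the 4 Mst1KO S1_S2 arrays and at 9.83, 10.19, 9.82, 9.86 and 10.07 on the 5 Mst1KO S3 arrays. All S3 arrays were above all S1_S2 arrays (0.49 ± 0.12, 1.41-fold, adjusted p = 0.00762). Without Mst1KO S1_S2 replicate 4 the adjusted p was 0.0503. Ifnar2 gave 0.17 ± 0.06 (adjusted p = 0.0898).

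Ddx58 encodes RIG-I, the cytoplasmic sensor of viral RNA ends. It was at 9.74, 9.73, 9.57 and 9.498 at Mst1KO S1_S2 and at 10.10, 10.07, 10.01, 9.97 and 10.10 at Mst1KO S3. These groups did not overlap (0.41 ± 0.11, adjusted p = 0.0153), though the call was lost without Mst1KO S1_S2 replicate 3 (adjusted p = 0.0505) or 4 (adjusted p = 0.0650). Ifi35, a leucine zipper protein of the innate response, was at 10.13, 10.14, 10.25 and 10.19 at S1_S2 and at 10.42, 10.41, 10.54, 10.37 and 10.59 at S3. It passed without overlap (0.29 ± 0.07, adjusted p = 0.0118) and did so with any 1 array left out, but not without the range term (adjusted p = 0.130), although all these arrays lie in the first range. Ifit3, whose protein binds viral RNA together with IFIT1, was at 7.85, 7.36, 7.59 and 7.36 at S1_S2 and at 8.06, 7.73, 7.94, 7.84 and 8.37 at S3 (0.45 ± 0.14, adjusted p = 0.0379). That call was lost without Mst1KO S1_S2 replicate 2, 3 or 4 or Mst1KO S3 replicate 1, 3 or 5, with an adjusted p of up to 0.133.

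Oasl2 fell in Mst1KO cells as it did in WT cells. It was at 7.93, 8.27, 7.95 and 7.78 at Mst1KO S1_S2 and at 6.98, 7.52, 7.46, 6.83 and 7.44 at Mst1KO S3, with no overlap (-0.73 ± 0.19, 1.66-fold, adjusted p = 0.0135). Without Mst1KO S1_S2 replicate 2 its adjusted p was 0.0542. Rtp4, a chaperone of surface receptors, was at 9.18, 9.51, 9.34 and 9.39 at S1_S2 and at 8.93, 9.14, 9.10, 8.997 and 9.14 at S3 (-0.29 ± 0.09, adjusted p = 0.0476). That call was lost without any one of 8 of the 9 arrays, all except Mst1KO S1_S2 replicate 1, with an adjusted p of up to 0.144. With the Mst1KO arrays that lacked Y-linked signal left out, none of the 38 passed in this comparison, with Ifi35 at 0.34 (adjusted p = 0.0927) and Oasl2 at -0.79 (adjusted p = 0.114), from 2 and 3 Mst1KO arrays. How many of all clusters passed in that smaller fit is not given here.

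Set side by side, the 2 maturation comparisons use different arrays. The sign was the same in 27 of the 38 genes (71.1%), against 65.9% of all clusters. Of the 7 genes that passed in WT cells, 6 had the same sign in Mst1KO cells, and 1, Oasl2, passed in both; of all clusters that passed in WT cells, 93.6% had the same sign. Oas2 gave -0.95 in WT and -0.52 in Mst1KO cells, Samhd1 -0.49 and -0.27, Irf1 0.38 and 0.14, and Oas3 -0.46 and 0.02. A test of the difference between both steps, which is also the test of whether the Mst1 effect depended on stage, passed for none of the 38 by limma and for 0.158% of clusters. At an unadjusted p under 0.05 it gave 3 genes, Isg15, Oas3 and Xaf1, and 9.49% of clusters.

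Between Mst1KO and WT at S1_S2 no interferon response gene passed the threshold. By limma 0 of the 38 passed, where 0.522% of clusters did, and 10 had an unadjusted p under 0.05, a level that 8.65% of clusters reached. The median difference was -0.10, against -0.01 over all clusters, with 25 genes negative. Irf1 was at 10.20, 10.34, 10.29 and 10.45 in Mst1KO S1_S2 against the 9.85 to 10.13 of WT given above. All Mst1KO arrays were above all WT arrays, but the difference (0.35 ± 0.10, adjusted p = 0.122) did not pass, though it did without the range term (0.38, adjusted p = 0.0452). Isg15, a ubiquitin-like modifier, was at 7.87, 8.02, 7.65 and 7.57 in Mst1KO and ran from 7.95 through 8.47 to 8.55 in WT (-0.40 ± 0.12, adjusted p = 0.190, and -0.55 with adjusted p = 0.0486 without the range term). Only Mst1KO replicate 2 reached into the WT range. The receptor genes gave -0.25 ± 0.13 for Ifnar1 (adjusted p = 0.599) and -0.17 ± 0.07 for Ifnar2 (adjusted p = 0.397). All Mst1KO arrays were below all WT arrays for Ifnar2 (highest 11.419 against lowest 11.424), and the groups overlapped for Ifnar1. Stat2 gave 0.09 ± 0.10 (adjusted p = 0.899), Irf9 -0.09 ± 0.09 (adjusted p = 0.873) and Irf7 0.03 ± 0.17 (adjusted p = 0.983).

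At S3, 4 of the 38 genes differed between Mst1KO and WT, where 6.37% of clusters passed. Rtp4 and Isg20 were lower and Ifi35 and Herc6 were higher in Mst1KO cells, so 2 genes moved each way (3.73% of clusters higher and 2.64% lower). The median difference was 0.00, against -0.05 over all clusters. Rtp4 ran from 9.37 through 9.48 to 9.79 at WT S3, above all of the Mst1KO S3 values given above (-0.46 ± 0.09, 1.38-fold, adjusted p = 0.00361). Isg20, an exonuclease that degrades single-stranded RNA, was at 9.92, 9.94, 10.22, 9.94 and 10.14 in Mst1KO S3 and ran from 10.26 through 10.38 to 10.59 in WT S3. Here too the groups did not overlap (-0.40 ± 0.09, 1.32-fold, adjusted p = 0.00800). Both differences passed also among the first range of title numbers alone, at -0.50 for Rtp4 (adjusted p = 0.0111) and -0.46 for Isg20 (adjusted p = 0.0120).

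Of the higher genes, Ifi35 kept its call in all 12 fits that left out 1 array (limma adjusted p at most 0.0160). Its call was lost in the fit of all arrays without the range term. The Herc6 call was lost in most fits that left out 1 array. Ifi35 ran from 10.003 through 10.29 to 10.54 at WT S3 and overlapped the Mst1KO S3 values of 10.37 to 10.59. Its 4 WT arrays of the first range lay at 10.11, 10.04, 10.003 and 10.29, below all Mst1KO arrays, and its 3 of the second at 10.44, 10.54 and 10.43. Ifi35 was the 1 gene of the 38 whose level differed between the ranges (0.35 higher in the second, adjusted p = 0.00228, where 6.13% of clusters passed). The difference by genotype was 0.35 ± 0.07 (1.28-fold, adjusted p = 0.00402) with the range term, 0.36 within the first range (adjusted p = 0.0320) and 0.20 without the term (adjusted p = 0.304). Herc6, the ligase that attaches ISG15 to proteins in mice, was at 10.62, 10.62, 10.75, 10.87 and 10.78 in Mst1KO S3. It ran from 9.79 through 10.01 to 10.72 in WT S3, where replicate 4 alone reached the Mst1KO range (0.52 ± 0.16, 1.44-fold, adjusted p = 0.0489). The Herc6 call was lost without any one of 10 of the 12 arrays, all except WT S3 replicates 4 and 7, with an adjusted p of up to 0.104. At S1_S2, Herc6 was at 11.10, 11.17, 10.99 and 11.06 in Mst1KO and ran from 10.10 through 10.36 to 11.23 in WT (0.49 ± 0.18, adjusted p = 0.338). There WT replicate 3 was the 1 WT array at the Mst1KO level, and without it the difference was 0.70 and passed (adjusted p = 0.0251).

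Receptor and factor genes did not pass at S3 in the fit reported here. Ifnar2 passed with repeated quantile scaling (-0.21, limma adjusted p = 0.0410) and with a variance trend and robust fitting (adjusted p = 0.0341). It passed in 0 of the 12 fits that left out 1 array. Ifnar1 gave -0.04 ± 0.11 (adjusted p = 0.855), Ifnar2 -0.16 ± 0.06 (adjusted p = 0.104), Stat2 0.22 ± 0.09 (adjusted p = 0.135), Irf9 -0.13 ± 0.08 (adjusted p = 0.344), Irf7 0.43 ± 0.16 (adjusted p = 0.0979) and Irf1 0.11 ± 0.09 (adjusted p = 0.435). Irf7 was at 10.12, 10.28, 10.15, 9.72 and 10.40 in Mst1KO S3 and ran from 9.24 through 10.01 to 10.31 in WT S3, so the groups overlapped widely. Samhd1, lower at S3 in WT cells, was at 9.99, 10.25, 10.08, 10.02 and 10.27 in Mst1KO S3 (0.33 ± 0.11, adjusted p = 0.0681). Mean levels of 5 double-positive thymocyte markers were 7.47 to 7.82 in Mst1KO S3 and 6.84 to 7.48 in WT S3. Cd8b1, Ptcra and Cd8a were above background on all WT S3 arrays and Rag2 on none. In Mst1KO S3, Cd8b1, Ptcra, Dntt and Cd8a were above it on all arrays. The part of these markers in the 4 differences was not tested.

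**Figure D3:**
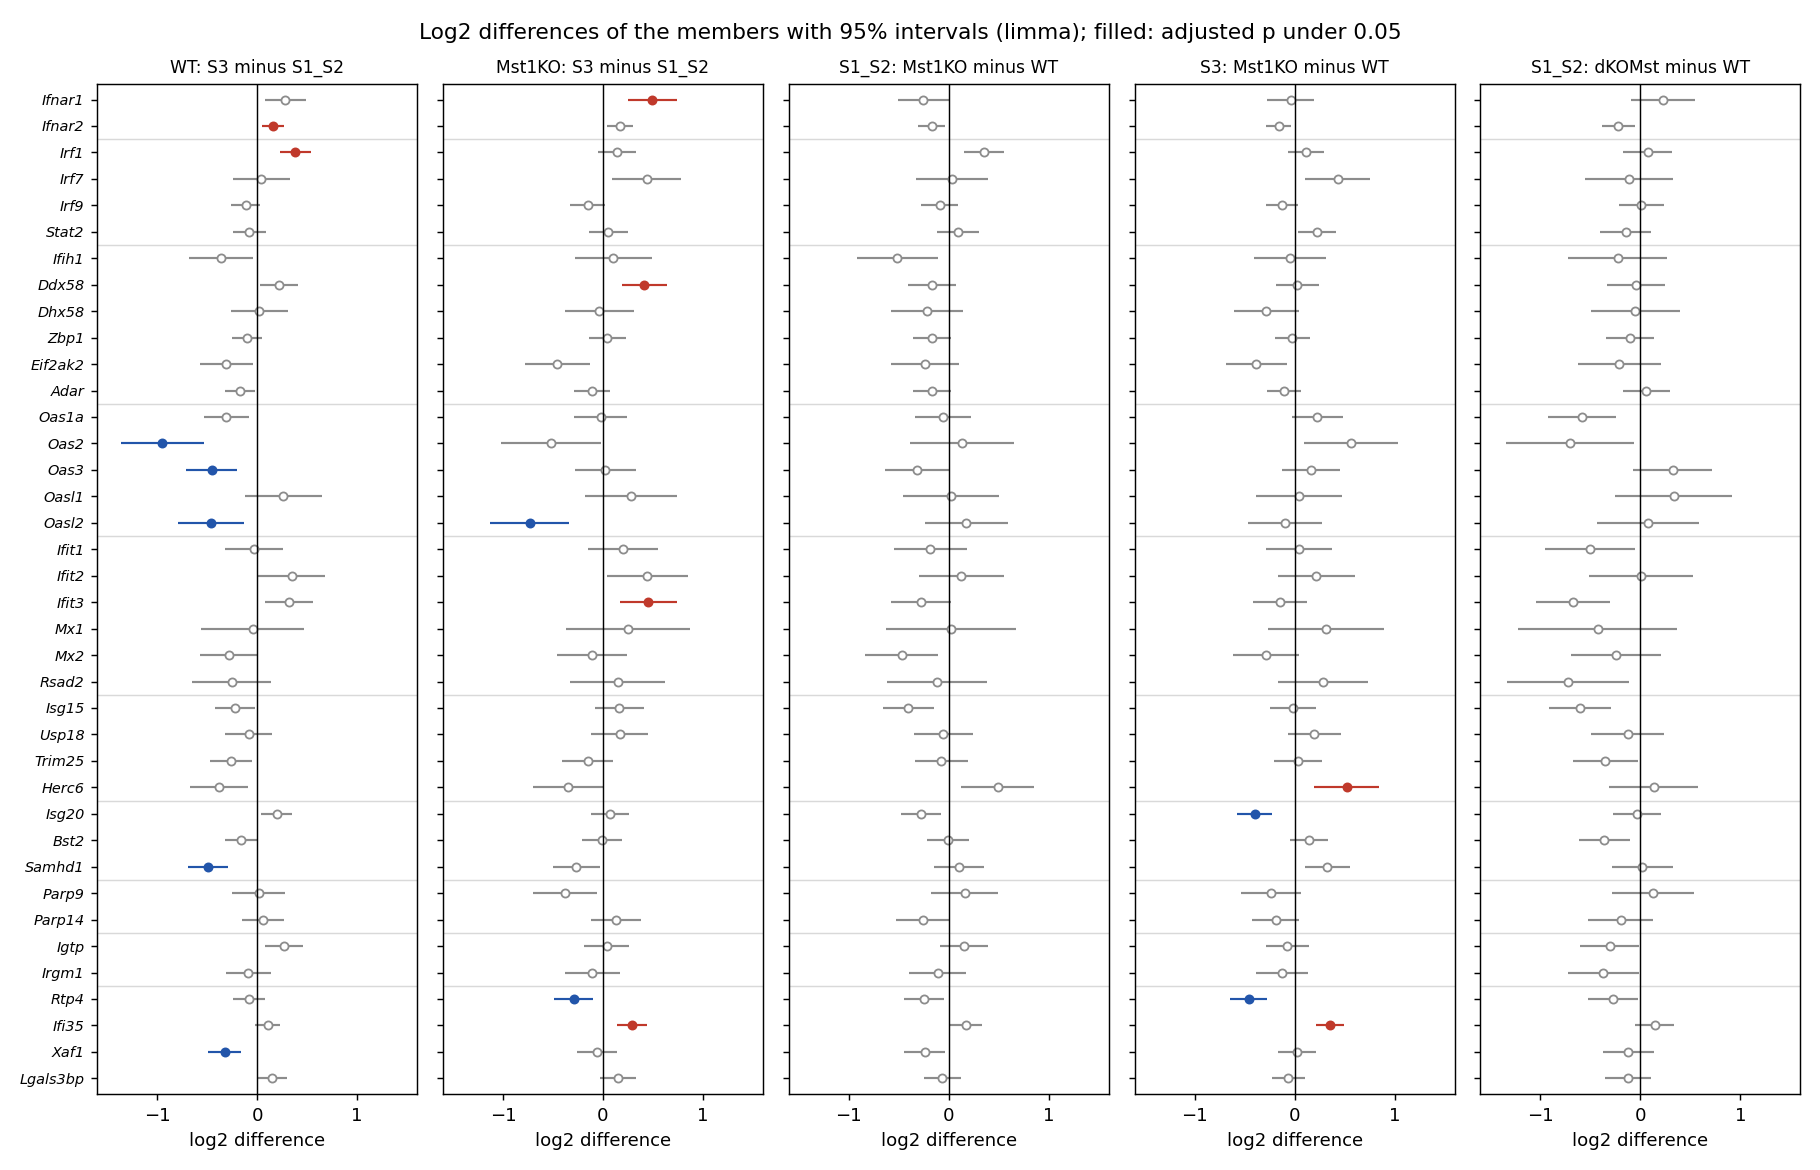
Log2 difference of each of the 38 genes in 5 comparisons, with 95% intervals from limma; genes are ordered by role, and filled points have an adjusted p under 0.05 (red higher, blue lower). WT maturation has 7 filled points, Mst1KO maturation 6, Mst1KO against WT 0 at S1_S2 and 4 at S3, and dKOMst against WT at S1_S2 0.

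The arrays labelled dKOMst at S1_S2 gave 0 of the 38 against WT by limma, where 0.923% of clusters passed, with 2 dKOMst arrays to test. At an unadjusted p under 0.05 they gave 12 genes, a level that 10.6% of clusters reached, and those 12 were negative. The median difference was -0.13, against 0.01 over all clusters, and 26 of the 38 were negative. Isg15 was at 7.78 and 7.97 on the dKOMst arrays and ran from 7.95 to 8.55 on the WT arrays (-0.61 ± 0.15, adjusted p = 0.0513). Without WT S1_S2 replicate 2 or 3 it passed, at adjusted p values of 0.0478 and 0.0310. Ifit3 was at 7.05 and 7.51, below the 7.71 to 8.07 of WT (-0.67 ± 0.18, adjusted p = 0.0740). Oas1a was at 8.62 and 8.51, below the 8.80 to 9.39 of WT (-0.58 ± 0.17, adjusted p = 0.106). Oas3 went the other way, at 9.69 and 9.55 against 8.69 to 9.43 in WT (0.32 ± 0.19, adjusted p = 0.601).

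The receptor and factor genes of dKOMst S1_S2 gave 0.22 ± 0.15 for Ifnar1 (adjusted p = 0.689), -0.22 ± 0.08 for Ifnar2 (adjusted p = 0.264) and 0.07 ± 0.12 for Irf1 (adjusted p = 0.917). Irf1 was at 9.997 and 9.99 there, within the WT range and below all 4 Mst1KO arrays. Ifnar2 ran from 11.20 to 11.24 in dKOMst S1_S2, below all WT arrays, and Ifnar1, at 9.82 to 10.01, overlapped WT. The direct comparison of dKOMst with Mst1KO at S1_S2 lies across the ranges of title numbers, so it rests on the range term. By limma it gave 0 of the 38, where 0.171% of clusters passed, and 6 genes at an unadjusted p under 0.05, a level that 8.50% of clusters reached. For Irf1 it gave -0.28 ± 0.14 (adjusted p = 0.60).

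The single dKOMst S3 array was set beside the 3 WT S3 arrays of its own range, as values without a test. None of the 38 genes differed by 2-fold, where 0.919% of clusters did. On that array 11 genes lay above all 3 WT arrays, 9 below and 18 within; of all clusters, 26.6% lay above and 26.0% below. Dhx58, the regulator of RNA sensing LGP2, was at 8.83 against 9.94, 9.32 and 9.70 in WT, and no other array of the series had it as low. Oas2 was at 8.88 against 7.75, 8.14 and 8.30, above every WT S3 array. Irf1 was at 9.96, below the 3 WT values of 10.42, 10.20 and 10.33. The array had no replicate, so the spread of its group is unknown and these values are a description only.

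Within groups, some arrays often held the highest or the lowest value of these genes. WT S1_S2 replicate 2 had the highest value of its group for 14 of the 38 genes, and replicate 3 had the lowest for 19, while over all clusters they did so for 15.7% and 18.9%. Mst1KO S1_S2 replicate 2 had the highest of its group for 19 and the lowest for 1 (24.2% and 29.8% of clusters). At S3, WT replicate 3 had the lowest value for 12 genes (13.3% of clusters). The spread left within groups differed by gene: the residual SD was 0.494 for Mx1, 0.395 for Oas2, 0.375 for Rsad2 and 0.360 for Oasl1, with a median of 0.192 over the 38 and 0.180 over all clusters. Genes on one array share its RNA, so these counts describe arrays and not independent events.

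**Figure D4:**
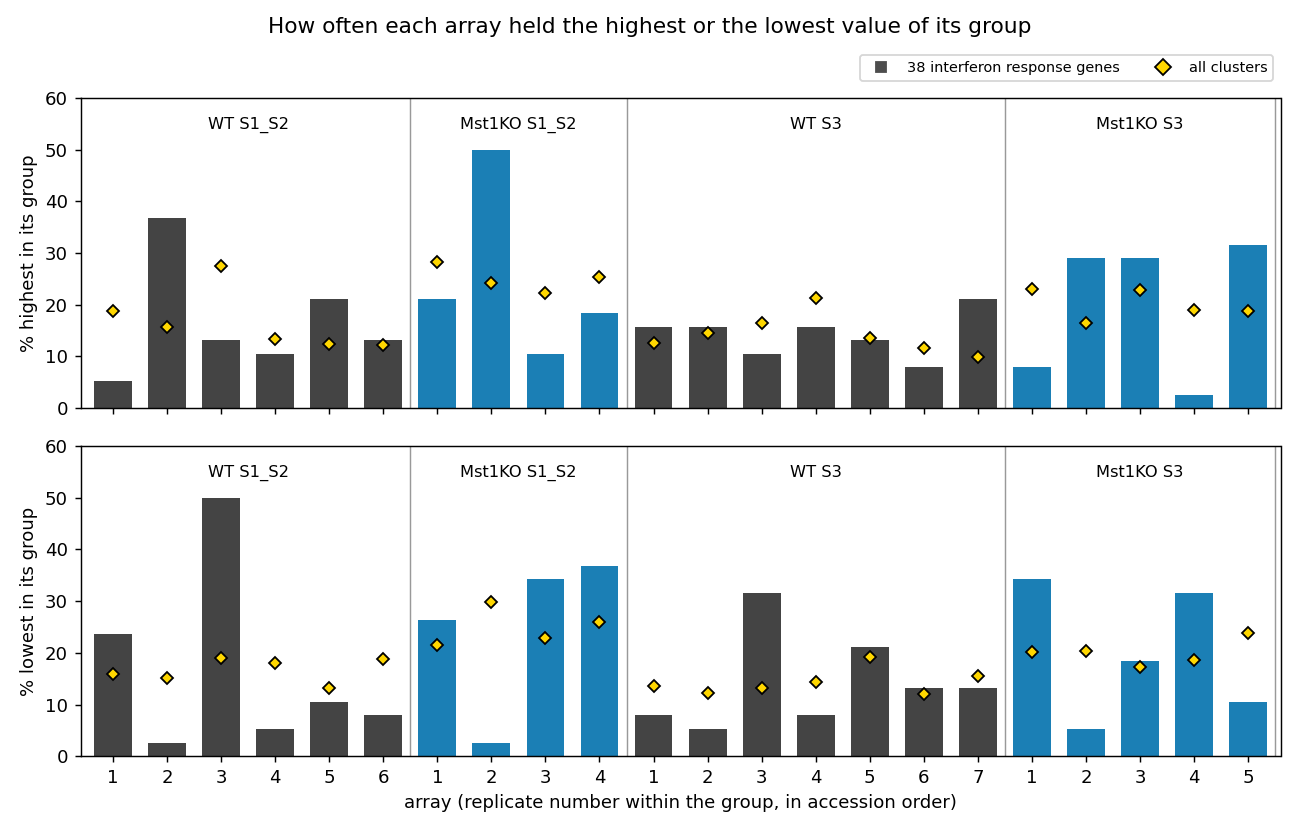
Share of the 38 genes (bars) and of all clusters (diamonds) for which each array held the highest (top) or the lowest (bottom) value of its group, for the 4 groups with over 2 arrays. Mst1KO S1_S2 replicate 2 held the highest value for 19 of the 38 genes and WT S1_S2 replicate 3 the lowest for 19, against 24.2% and 18.9% of clusters.

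Other genes of the pathway were read from lists by function. Of 17 measured type I and III interferon genes, 0 passed by limma in WT maturation (16.9% of clusters), with 0 at an unadjusted p under 0.05. Between Mst1KO and WT at S3, 1 passed, where 6.37% of clusters did, 2.64% of them lower. It was Ifna1, which was lower in Mst1KO (-0.31 ± 0.08, adjusted p = 0.0237). Interferon alpha genes are near copies of each other, so which of them the probes read is uncertain, and the Ifna1 call was lost without any one of 2 of the 12 arrays. Of 22 measured genes of interferon signalling and its inhibitors, 10 were higher and 2 lower at WT S3 than at WT S1_S2. Over all clusters 8.18% were higher and 8.75% lower in this comparison. Stat4, the STAT of interleukin 12, gave 3.33 ± 0.20 (adjusted p = 1.34e-11), but it was above background on 1 of the 6 WT S1_S2 arrays, so the size of its difference is uncertain. Genes above background on all WT arrays with large differences were Irf4 (-1.95 ± 0.17, adjusted p = 5.27e-09), Ifngr2 (-1.77 ± 0.14, adjusted p = 1.14e-09) and Ifngr1 (1.68 ± 0.09, adjusted p = 1.50e-12). The 2 chains of the interferon gamma receptor therefore moved in opposite directions, in Mst1KO maturation as well (Ifngr1 1.23, Ifngr2 -1.64). In that comparison 9 genes of the list were higher and 2 lower (5.58% and 4.62% of clusters), and between Mst1KO and WT at S3 1 was higher (3.73% of clusters), Ptpn2 (0.32, adjusted p = 0.0465), a call lost without any one of 9 of the 12 arrays.

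The largest differences of interferon-induced genes between Mst1KO and WT at S3 that passed lay outside the 38. Of 47 other measured interferon-stimulated genes, 14 were higher and 5 lower in WT maturation (8.18% and 8.75% of clusters). Between Mst1KO and WT at S3, 2 were higher and 5 lower in Mst1KO (3.73% and 2.64% of clusters). Ifitm3, a membrane protein that blocks virus entry, ran from 7.42 to 8.31 at WT S1_S2 and from 8.53 to 9.59 at WT S3 (1.11 ± 0.13, adjusted p = 5.66e-07). It ran from 7.60 to 8.12 in Mst1KO S3, below all WT S3 arrays (-1.31 ± 0.14, adjusted p = 9.20e-06). Its neighbours in the family, Ifitm2 (-1.03 ± 0.19, adjusted p = 0.00289) and Ifitm1 (-0.96 ± 0.23, adjusted p = 0.0136), were also lower, as was the death ligand gene Tnfsf10 (-0.66 ± 0.15, adjusted p = 0.0101). Unlike for Ifitm3, the Mst1KO S3 and WT S3 arrays overlapped for Ifitm2, Ifitm1 and Tnfsf10. In WT maturation Tnfsf10 rose by 1.42 ± 0.13 (adjusted p = 1.61e-08). Of 12 sensing adaptors and kinases, Tlr7, the endosomal receptor for single-stranded RNA, was lower in Mst1KO than in WT at S3 (-2.09 ± 0.29, adjusted p = 0.000178). There 2.64% of clusters were lower. In WT maturation Ikbke was lower (-0.45, adjusted p = 0.00869) and Unc93b1 higher (0.35, adjusted p = 0.0112), against 8.75% and 8.18% of clusters. In Mst1KO maturation Tlr7 was lower (-1.11, adjusted p = 0.0220) and Unc93b1 higher (0.51, adjusted p = 0.00393), against 4.62% and 5.58%. That Tlr7 call was lost without any one of 4 of the 9 arrays. At S1_S2 Tlr7 was lower in dKOMst than in WT (-2.46 ± 0.40, adjusted p = 0.00156), where 0.923% of clusters passed. It was above background on 1 of the 2 dKOMst arrays, at 6.39 and 6.93, so the size is uncertain. The dKOMst call for Tlr7 was lost in 1 of the 8 fits that left out 1 array, at an adjusted p of 0.115.

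Of 21 measured genes that respond mainly to interferon gamma, 8 were higher and 4 lower in WT maturation (8.18% and 8.75% of clusters). Ifng itself gave 3.37 ± 0.23 (adjusted p = 8.59e-11), but it was above background on 2 of the 6 WT S1_S2 arrays, so the size of its differences from that group is uncertain. Other genes of the list that passed were Iigp1 (-0.98 ± 0.19, adjusted p = 0.000720), Gbp3 (0.83 ± 0.12, adjusted p = 1.02e-05) and Gbp9 (0.75 ± 0.11, adjusted p = 1.10e-05), the last 3 encoding GTPases that attack vacuoles of pathogens. Ifng was also higher in Mst1KO than in WT, at S1_S2 (1.48 ± 0.28, adjusted p = 0.0122) and at S3 (1.07 ± 0.26, adjusted p = 0.0159). At S1_S2 the call was lost without any one of 2 of the 10 arrays. Of all clusters, 0.522% passed at S1_S2 and 6.37% at S3. Ifi30 was higher at S3 too, by 0.61 to 0.85 in the fits that left out 1 array (adjusted p of at most 0.00492). Tgtp2 was lower at S3 (-0.37 ± 0.10, adjusted p = 0.0375), a call lost without any one of 7 of the 12 arrays. In dKOMst S1_S2, where 0.923% of clusters passed, the list gave 2 lower genes, Iigp1 (-1.34, adjusted p = 0.0282) and Tgtp2 (-0.62, adjusted p = 0.0323), each lost without any one of 4 of the 8 arrays. Among the other interferon-stimulated genes, 2 were lower and 1 higher in dKOMst S1_S2 (0.923% of clusters in either direction): Parp12 (-0.81, adjusted p = 0.0120), Ifi204 (-0.60, adjusted p = 0.00731) and Ms4a4b (0.59, adjusted p = 0.0437). Parp12 and Ifi204 were each lost in 1 of the 8 fits that left out 1 array, and Ms4a4b in 6.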

How the data were processed

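The 25 samples were hybridised to mouse Clariom S arrays. The deposited values are log2 levels per transcript cluster; per the submitters' processing notes, the authors used Expression Console 1.1 (Affymetrix) and RMA; background correction, quantile scaling and summary over probes are thus theirs, and RMA forces like distributions on all arrays. The sources used here do not give the genome build of the probes. Of 28846 clusters and controls, 6640 controls were left out; of the 22206 clusters tested, 19572 carried 1 gene symbol in the platform annotation and 2634 none. No column lacked a sample (0 unassigned).

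In R 4.3.3, limma 3.58.1 was run on all clusters (lmFit, eBayes; 6 group means and a term for the range of title numbers, 18 residual degrees of freedom), with Benjamini-Hochberg adjustment over all clusters of a comparison and calls at an adjusted p under 0.05. The procedure was tested on simulated data. A value above the median of 5222 negative control probes counts as above background; the number of arrays limits the precision. Alternatives were no range term, the range as a random block, each range alone, repeated quantile scaling, brighter clusters, a variance trend with robust fitting, arrays with Y-linked signal alone, and leaving out each array. The members and lists were chosen with earlier results of these data known. Genes named with values were Ifnar1, Ifnar2, Stat2, Irf9, Irf7 and Irf1, up to 12 members past the threshold per comparison, up to 4 genes past it per other list, Stk4, and members with an array that stood apart; members near the threshold, those on the dKOMst S3 array and the most variable ones were added after their values were seen, as were further list members in the dKOMst comparison.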

Additional observations from a re-analysis of the deposited data

Results flagged for a closer look

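In groups of 4 to 7 arrays, 152 tests for a single array far from the others (Dixon's ratio, 95% level) marked 11 values, 4 high and 7 low; chance alone marks about 1 in 20 groups. Among WT S1_S2 arrays, replicate 3 was high for Irf1 (10.13) and Herc6 (11.23), and replicate 1 was low for Irf7 (9.25) and Ddx58 (9.36). Among Mst1KO S1_S2 arrays, replicate 2 was high for Irf7 (10.09), replicate 4 was low for Oas3 (8.16) and Rsad2 (5.73), and replicate 1 was low for Eif2ak2 (9.01), the RNA-activated kinase PKR. At S3, Herc6 was high on WT replicate 4 (10.72), Ifit2 was low on Mst1KO replicate 4 (6.76) and Irf1 was low on Mst1KO replicate 5 (10.20).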

How the results depend on the processing

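Counts of called genes stayed within 1.5 times of those reported except for the following. The share of all clusters called under each setting is not given here, so a changed count is not a result about these genes alone. Without the range term, Mst1KO against WT at S1_S2 gave 2 genes in place of 0 (Irf1 and Isg15) and dKOMst against Mst1KO gave 1 in place of 0 (Oas3). WT maturation gave 1 gene with the first range alone, 4 with the second alone and 12 among brighter clusters, in place of 7. With brighter clusters, and with a trend and robust variance, dKOMst against WT at S1_S2 gave 1 in place of 0 (Isg15). With arrays with Y-linked signal alone, Mst1KO maturation gave 0 in place of 6. Against all WT S3 arrays, the dKOMst S3 array had 2 genes past 2-fold in place of 0. With each array left out in turn, counts ranged from 6 to 10 in WT maturation, from 3 to 5 for Mst1KO against WT at S3 and from 2 to 7 in Mst1KO maturation (3 without Mst1KO S1_S2 replicate 3, 2 without replicate 4). They ranged from 0 to 1 for Mst1KO against WT at S1_S2 (1, Herc6, without WT S1_S2 replicate 3), from 0 to 1 for dKOMst against WT at S1_S2 (1, Isg15, without WT S1_S2 replicate 2 or 3) and from 0 to 1 for the dKOMst S3 array (1 without WT S3 replicate 5). The stage dependence of the Mst1 effect and dKOMst against Mst1KO stayed at 0 in these fits. Among a subset of single-gene values followed across settings, 507 kept their side of the threshold, 74 lost it, 9 gained it and 0 changed sign. The 9 do not count every gain in the set, where gains were more frequent. In WT maturation, Ifnar1, Oas1a, Herc6, Igtp and Ifit3 missed the threshold in the fit reported here. Each passed among brighter clusters and without some single arrays. Among brighter clusters their log2 differences were those of the fit reported here, and the set of clusters tested differed. The cause of the changed calls was not tested. No paired analysis was possible because the labels carry no replicate numbers and name no shared animals; the numbers used here follow sample order only. Groups of 1 to 7 arrays limit the precision, and genes near the negative controls, such as Mx1 and Rsad2, are measured least well.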
